A study of Gallus gallus with 8 samples.

Results

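Genes that direct how embryonic epidermis reads and splices its genome were followed in the developing dorsal skin of the chicken. The 8 genes were chosen by name from the 14642 genes of the deposited expression table, and all 8 were found. They are TP63, the grainyhead-like genes GRHL1, GRHL2 and GRHL3, KLF4, TFAP2A, TFAP2C and ESRP2.

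The epidermis begins as a simple surface ectoderm that becomes a stratified sheet. TP63 encodes p63, the transcription factor that stratified epithelia of mammals need to form and to keep their basal cells. Grainyhead-like proteins open chromatin at genes of cell junctions and the skin barrier, and TFAP2 proteins act from early surface ectoderm onward, with TFAP2A and TFAP2B also known from neural crest. KLF4 is a zinc finger factor that mammalian keratinocytes need to build the barrier, and it is also made by other cells, among them fibroblasts and vascular cells. ESRP2 and its relative ESRP1 bind RNA and select the epithelial exons of many transcripts, among them those of the growth factor receptor FGFR2.

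RNA-Seq was made of epithelium and mesenchyme of dorsal skin of chicken embryos, which carried no treatment or transgene, at 2 ages in the staging of Hamburger & Hamilton (H&H), namely H&H 31 (day 7 of incubation) and H&H 35 (day 9). The study set these stages before and after the start of polarized feather bud elongation, and the tissues were separated in saline without calcium and magnesium. Each of the 4 groups, both tissues at both stages, holds 2 libraries, labelled batch I and batch II and called biological replicates in the study. How many embryos went into a library is not given in the sources used here. The p-values rest on the spread between libraries within groups, pooled over the 4 groups and drawn towards the spread of other genes.

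Values are RPKM, which scales reads to the length of a gene and to the depth of its library, and errors of means are SD with n = 2. The libraries hold 22050712 to 33620383 alignments. The labelled tissues matched their markers. All 12 epithelium markers (CDH1, keratins and others) were at 1 RPKM or more in the epithelium, where they summed to 1257 to 1565 RPKM at H&H 31 and 2673 to 2894 at H&H 35. In the mesenchyme they summed to 10.2 to 18.3 RPKM at H&H 31 and 38.9 to 41.5 at H&H 35. The 11 mesenchyme markers in the table summed to 3905 to 4461 RPKM in the mesenchyme of both stages and to 508.1 to 680.6 in the epithelium. The 9 melanocyte markers in the table summed to 295.1 to 495.5 RPKM in the epithelium and to 18.4 to 28.0 in the mesenchyme.

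Differences were tested on log2(RPKM + 1) with limma over the 11155 genes that had at least 1 RPKM in at least 2 libraries, and a gene was called where its Benjamini-Hochberg adjusted p was under 0.05. All 8 regulators passed that filter. In the epithelium, 5 of the 8 rose between the stages, namely GRHL1, GRHL2, GRHL3, KLF4 and TFAP2C, while TP63, TFAP2A and ESRP2 did not pass the test and 0 of 8 fell, also at an unadjusted p under 0.05. Among all genes tested in epithelium, 18.6% rose and 15.9% fell. The median change of the 8 was 0.70 on the log2 scale, beside 0.02 over all genes. In the mesenchyme, 6 of the 8 rose (TP63, GRHL1, KLF4, TFAP2A, TFAP2C, ESRP2) and 0 fell by limma, also at an unadjusted p under 0.05, beside 18.2% of all genes higher and 21.6% lower. Their median change there was 0.76, beside -0.03 over all genes.

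**Figure D1:**
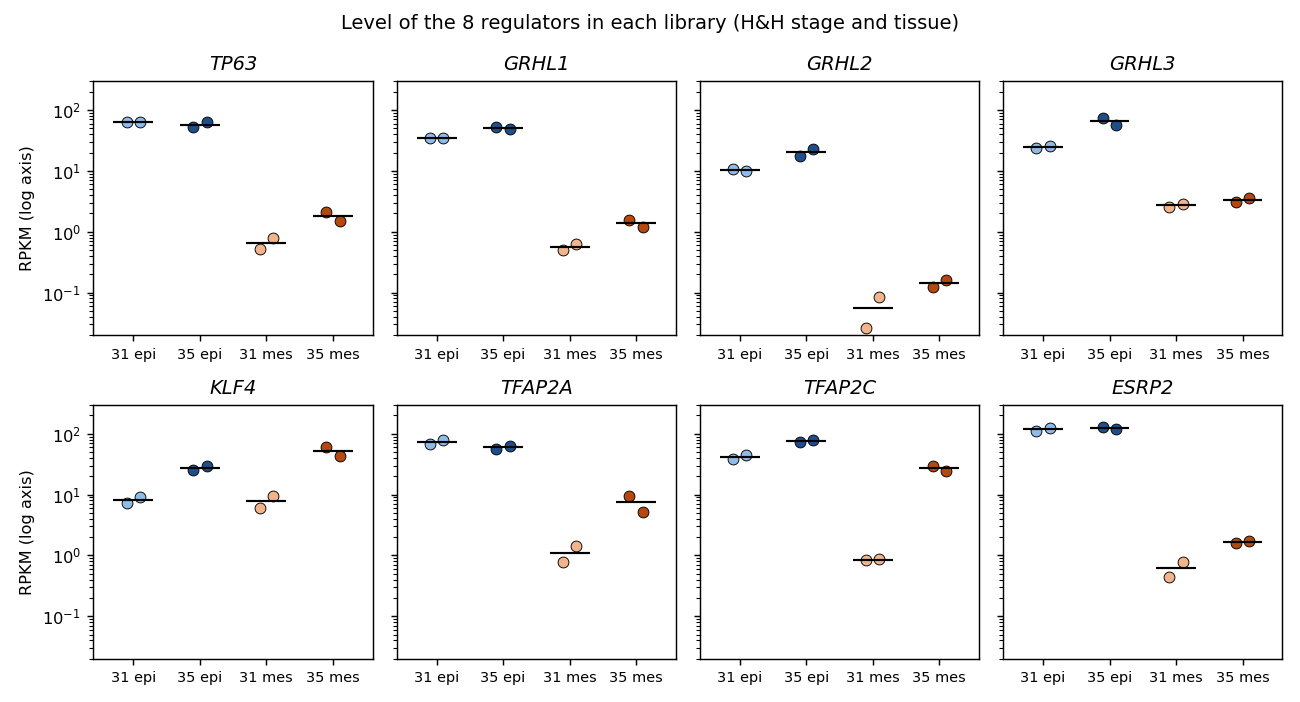
RPKM of the 8 regulators on a log axis, 1 panel a gene, with 1 point for each library (batch I left, batch II right) and a line at the mean of each group. 7 of the 8 genes sit higher in epithelium (epi) than in mesenchyme (mes) at both stages, whereas KLF4 lies at 6.02 to 9.57 RPKM in all 4 libraries of H&H 31 and at 43.0 and 61.1 in H&H 35 mesenchyme.

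TP63 was high in epithelium at both stages. Its level was 64.1 RPKM in batch I and 62.7 in batch II at H&H 31, and 51.9 and 63.5 at H&H 35. These 4 values overlapped between stages, with means of 63.4 ± 1.01 and 57.7 ± 8.24 RPKM. The log2 change was -0.14 (SE 0.14, 95% interval -0.47 to 0.18, adjusted p = 0.491), so no change of TP63 was called in the epithelium. In the mesenchyme, TP63 was at 0.526 and 0.775 RPKM at H&H 31 and at 2.14 and 1.52 at H&H 35. Both later mesenchymal libraries were above both earlier ones, a 2.81-fold rise of the mean (4.07-fold in batch I and 1.95-fold in batch II) with a log2 change of 0.77 (SE 0.14, adjusted p = 0.00288). Even so, TP63 in mesenchyme stood at 1.03% of its epithelial level at H&H 31 and 3.17% at H&H 35.

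The grainyhead-like genes rose together in the epithelium. GRHL1 was at 34.5 and 35.0 RPKM in H&H 31 epithelium and at 52.4 and 48.4 in H&H 35 epithelium, with no overlap. Its mean rose 1.45-fold, from 34.8 ± 0.390 to 50.4 ± 2.87 RPKM (0.52 on the log2 scale, SE 0.11, adjusted p = 0.00694). That call was lost without batch I of H&H 31 epithelium (adjusted p = 0.0507) and without batch I of H&H 35 epithelium (adjusted p = 0.0564).

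GRHL2, whose loss in mice prevents closure of the neural tube, had the lowest grainyhead-like level of the epithelium. It was at 10.8 and 10.02 RPKM at H&H 31 and at 17.9 and 22.6 at H&H 35, so that both later libraries were above both earlier ones. The mean rose 1.95-fold (1.66-fold in batch I, 2.26-fold in batch II), from 10.4 to 20.2 ± 3.34 RPKM, with a log2 change of 0.89 (SE 0.13, adjusted p = 0.00101).

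GRHL3, which mammalian epidermis needs for barrier formation and wound closure, changed most within the family. Its epithelial level was 23.4 and 25.5 RPKM at H&H 31 and 74.9 and 57.5 at H&H 35. The mean rose 2.7-fold, from 24.5 ± 1.48 to 66.2 ± 12.3 RPKM, by 3.2-fold in batch I and 2.25-fold in batch II (log2 change 1.39, SE 0.13, adjusted p = 8.72e-05). The 95% interval of the GRHL3 change, 1.09 to 1.69, does not overlap that of GRHL1, 0.27 to 0.78, while the GRHL2 interval, 0.59 to 1.19, overlaps both; the genes were not tested against each other.

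For the 3 grainyhead-like genes the RPKM values fall on whole multiples of 1 read, so the reads behind them can be given. GRHL1 in epithelium rested on 3238 and 4029 reads at H&H 31 and on 7438 and 5588 at H&H 35. In mesenchyme it rested on 48 and 76 reads at H&H 31 and on 220 and 167 at H&H 35. GRHL3 in mesenchyme rested on 104 and 145 reads at H&H 31 and on 184 and 214 at H&H 35. GRHL2 was close to the limit of detection in mesenchyme, with 1 and 4 reads at H&H 31 and 7 and 9 reads at H&H 35, against 405 to 1047 reads in the epithelial libraries.

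In mesenchyme, the family behaved unevenly. GRHL1 was at 0.503 and 0.637 RPKM at H&H 31 and at 1.57 and 1.19 at H&H 35, a 2.42-fold rise (log2 change 0.60, SE 0.11, adjusted p = 0.00328). The counting intervals of the later libraries (1.37 to 1.79 and 1.01 to 1.38 RPKM, exact Poisson at the 95% level) lay above those of the earlier ones (0.371 to 0.666 and 0.502 to 0.797 RPKM). These intervals cover counting error only. GRHL2 was at 0.0261 and 0.0836 RPKM and then at 0.125 and 0.159. Although the later values were higher, their counting intervals (0.0502 to 0.257 and 0.0729 to 0.303 RPKM) overlapped those at H&H 31 (0.000661 to 0.145 and 0.0228 to 0.214 RPKM), and the gene did not pass the test (log2 change 0.12, 95% interval -0.19 to 0.42, adjusted p = 0.531). GRHL3 was at 2.60 and 2.90 RPKM at H&H 31 and at 3.14 and 3.63 at H&H 35, which did not pass either (log2 change 0.22, 95% interval -0.08 to 0.53, adjusted p = 0.216).

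The make-up of the family differed between tissues and stages. RPKM is per length, so that the summed RPKM of the 3 genes can be split into shares. In H&H 31 epithelium, GRHL1 held 50.2% and 49.6% of a sum of 68.7 and 70.6 RPKM, and GRHL3 held 34.1% and 36.2%. In H&H 35 epithelium the sum was 145 and 128 RPKM, of which GRHL3 held 51.6% and 44.7% and GRHL1 36.1% and 37.7%. In other words, GRHL1 had the largest share in both earlier epithelial libraries and GRHL3 in both later ones. The mesenchymal sum was 3.13 to 4.97 RPKM, and GRHL3 held most of it in every library, from 64.9% to 83.1%. GRHL3 was in fact the grainyhead-like gene with the highest mesenchymal level relative to epithelium, 11.2% at H&H 31 and 5.11% at H&H 35.

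**Figure D2:**
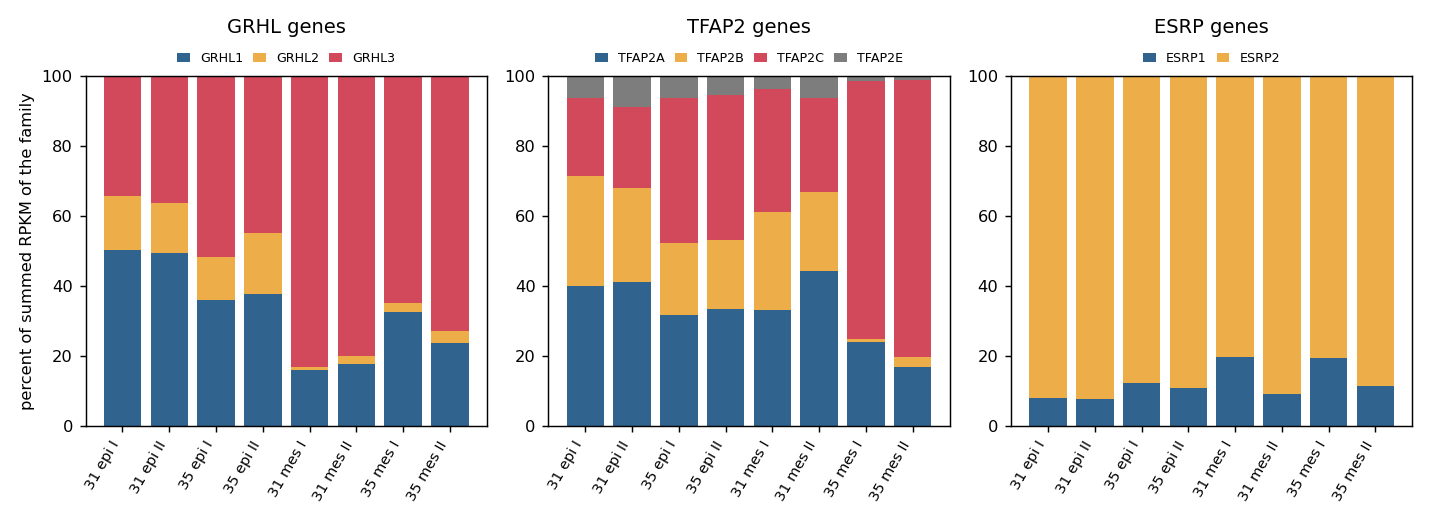
Stacked bars give the percent of the summed RPKM of each family taken by each gene, for the 8 libraries (stage, tissue and batch below each bar). GRHL1 holds 49.6% to 50.2% of the grainyhead-like sum in H&H 31 epithelium, TFAP2C holds 73.9% to 79.4% of the TFAP2 sum in H&H 35 mesenchyme, and ESRP2 holds 80.2% to 92.4% of the ESRP sum throughout.

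The 2 TFAP2 genes took different courses. TFAP2A was at 69.0 and 79.7 RPKM in H&H 31 epithelium and at 56.8 and 63.3 in H&H 35 epithelium. The later values were lower in both batches, with means of 74.3 ± 7.53 and 60.05 ± 4.57 RPKM, but the difference did not pass the test (log2 change -0.30, SE 0.23, 95% interval -0.83 to 0.23, adjusted p = 0.36). TFAP2C was at 38.3 and 44.7 RPKM in H&H 31 epithelium and at 74.4 and 78.3 in H&H 35 epithelium. Its mean rose 1.84-fold without overlap, from 41.5 ± 4.53 to 76.3 RPKM (0.87 on the log2 scale, SE 0.11, adjusted p = 0.000435).

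Both TFAP2 genes rose in mesenchyme, TFAP2C by far more than any other of the 8. TFAP2C went from 0.830 and 0.874 RPKM at H&H 31 to 29.7 and 24.7 at H&H 35. That is a 31.9-fold rise of the mean, from 0.852 ± 0.0305 to 27.2 ± 3.52 RPKM, with 35.8-fold in batch I and 28.3-fold in batch II (log2 change 3.92, SE 0.11, 95% interval 3.67 to 4.17, adjusted p = 3.07e-07). Among the tested genes of the same library, TFAP2C passed from above 8.91% and 9.13% of them at H&H 31 to above 83% and 78.9% at H&H 35.

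TFAP2A in mesenchyme was at 0.786 and 1.44 RPKM at H&H 31 and at 9.66 and 5.27 at H&H 35. The groups did not overlap, and the mean rose 6.72-fold, from 1.11 ± 0.460 to 7.47 ± 3.10 RPKM (1.97 on the log2 scale, SE 0.23, adjusted p = 0.000264). Setting libraries of equal number together gave 12.3-fold in batch I and 3.67-fold in batch II. Equal numbers need not pair libraries across stages, where deviations from the group means correlated at 0.03 in mesenchyme. Without the batch I library of H&H 35 mesenchyme the log2 change was 1.59. Among the other cell types checked, that library also had the higher sum of 8 striated muscle markers, 47.7 RPKM beside 6.95 in batch II. Of these markers, 1 was at 1 RPKM or more in both libraries. Over the same 2 libraries the leukocyte sum ran from 41.3 to 77.1 RPKM and the smooth muscle and pericyte sum from 84.4 to 103. The melanocyte sum was 18.4 to 21.7 RPKM there, beside 27.4 to 28.0 in H&H 31 mesenchyme. That of neuron and Schwann cell markers was 56.1 to 65.2, beside 139.2 to 150.4. The part of any of these cells in the TFAP2A value was not tested.

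2 further TFAP2 genes were measured. TFAP2B, a close relative of TFAP2A, was at 54.2 and 52.2 RPKM in H&H 31 epithelium and at 36.8 and 37.2 in H&H 35 epithelium. It fell by 0.51 on the log2 scale (SE 0.15, adjusted p = 0.0306), a call that was lost in 10 alternatives. In mesenchyme it stayed between 0.302 and 0.859 RPKM in the 4 libraries and did not pass the test (adjusted p = 0.548). TFAP2E was at 9.86 to 17.0 RPKM in epithelium and at 0.0829 to 0.509 in mesenchyme, with no stage change called in either tissue. Its mesenchymal mean rose 2.8-fold (log2 change 0.29, adjusted p = 0.281 by limma). That log2 change ran up to 1.04 over the alternatives, 1 of which called it. At such low levels log2(RPKM + 1) understates a change. Of the 4 measured TFAP2 genes, then, TFAP2A and TFAP2C were called higher at H&H 35 in the mesenchyme.

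The TFAP2 sum in epithelium was 172 and 194 RPKM at H&H 31 and 179 and 189 at H&H 35, so that the total overlapped between stages while its parts shifted. TFAP2A held 40.1% and 41.1% of it at H&H 31 and 31.7% and 33.5% at H&H 35, whereas TFAP2C held 22.2% and 23.1% and later 41.5% in both libraries. In mesenchyme the sum was 2.36 and 3.24 RPKM at H&H 31 and 40.2 and 31.1 at H&H 35, and 73.9% and 79.4% of the later sum was TFAP2C.

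KLF4 was the only one of the 8 that did not favour the epithelium. At H&H 31 it was at 7.37 and 9.25 RPKM in epithelium and at 6.02 and 9.57 in mesenchyme. The tissues overlapped, with a log2 difference of mesenchyme from epithelium of -0.10 (SE 0.22, 95% interval -0.59 to 0.38, adjusted p = 0.705). At H&H 35 it was at 25.4 and 29.004 RPKM in epithelium and at 61.1 and 43.0 in mesenchyme, so that both mesenchymal libraries were above both epithelial ones. The mesenchymal mean was 191% of the epithelial mean, 240% in batch I and 148% in batch II (log2 difference 0.89, SE 0.22, 95% interval 0.40 to 1.38, adjusted p = 0.00517), and it did not pass when each gene kept its own variance (adjusted p = 0.0645).

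KLF4 rose in both tissues between the stages. In epithelium its mean rose 3.28-fold, from 8.31 ± 1.33 to 27.2 ± 2.52 RPKM, with 3.45-fold and 3.14-fold in the batches (log2 change 1.605, SE 0.22, adjusted p = 0.000569), the largest epithelial change among the 8. In mesenchyme it rose 6.68-fold, from 7.79 ± 2.51 to 52.1 ± 12.8 RPKM, by 10.2-fold in batch I and 4.5-fold in batch II (log2 change 2.60, SE 0.22, adjusted p = 3.82e-05). KLF4 is also known from vessels. Over the same stages the summed level of 11 endothelium markers in mesenchyme went from 119.3 to 124.5 RPKM to 242.3 to 260.3, and that of 6 smooth muscle and pericyte markers from 18.9 to 19.5 RPKM to 84.4 to 103. Single markers did not move alike. Their log2 changes ran from -0.36 (ERG) to 3.38 (SOX18) in the first list and from 0.30 (PDGFRB) to 3.86 (MYOCD) in the second. ERG, FLI1, ESAM and PDGFRB were not called. The part of these cells in the KLF4 values was not tested. In bulk tissue, more cells of a type and more RNA per cell cannot be told apart.

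ESRP2 had the highest level of the 8 in epithelium and was steady there. It was at 112 and 123 RPKM at H&H 31 and at 127 and 118 at H&H 35. The values overlapped, with means of 117.7 ± 7.49 and 122.5 ± 6.68 RPKM and a log2 change of 0.06 (SE 0.11, 95% interval -0.20 to 0.32, adjusted p = 0.748). Above it lay only a small part of the table, since ESRP2 exceeded 96.6% to 96.9% of the tested genes in each epithelial library. In mesenchyme it was at 0.447 and 0.778 RPKM at H&H 31 and at 1.605 and 1.75 at H&H 35, a 2.74-fold rise (log2 change 0.74, SE 0.11, adjusted p = 0.00111).

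ESRP1, the other epithelial splicing regulator of the family, was lower and did move in epithelium. It was at 9.53 and 10.04 RPKM at H&H 31 and at 17.6 and 14.4 at H&H 35, without overlap, on 767 to 2139 reads. Its mean rose 1.64-fold (log2 change 0.65, SE 0.13, adjusted p = 0.00491), a call that was lost with a pseudocount of 0.1 (adjusted p = 0.0517). ESRP2 nonetheless held 92.2% and 92.4% of the summed ESRP level in H&H 31 epithelium and 87.8% and 89.1% at H&H 35. In mesenchyme ESRP1 rested on 9 and 8 reads at H&H 31 and on 46 and 27 at H&H 35. Its mean rose 3.23-fold there but did not pass the test (log2 change 0.25, adjusted p = 0.163). That log2 change ran up to 1.03 over the alternatives, 1 of which called it. At such low levels log2(RPKM + 1) understates a change. RPKM of a whole gene does not show which exons were used, so splicing itself was not measured here.

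Set side by side per length, the order of the 8 in epithelium changed between the stages. At H&H 31 the means ran from ESRP2 (117.7 RPKM) through TFAP2A (74.3), TP63 (63.4), TFAP2C (41.5), GRHL1 (34.8), GRHL3 (24.5) and GRHL2 (10.4) to KLF4 (8.31), and no neighbours in this order overlapped in their libraries. At H&H 35, after ESRP2 (122.5 RPKM), came TFAP2C (76.3), GRHL3 (66.2), TFAP2A (60.05), TP63 (57.7), GRHL1 (50.4), KLF4 (27.2) and GRHL2 (20.2). There the libraries of TFAP2C and GRHL3, of GRHL3 and TFAP2A, of TFAP2A and TP63, and of TP63 and GRHL1 overlapped, so the order of these neighbours is not settled by 2 libraries.

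**Figure D3:**
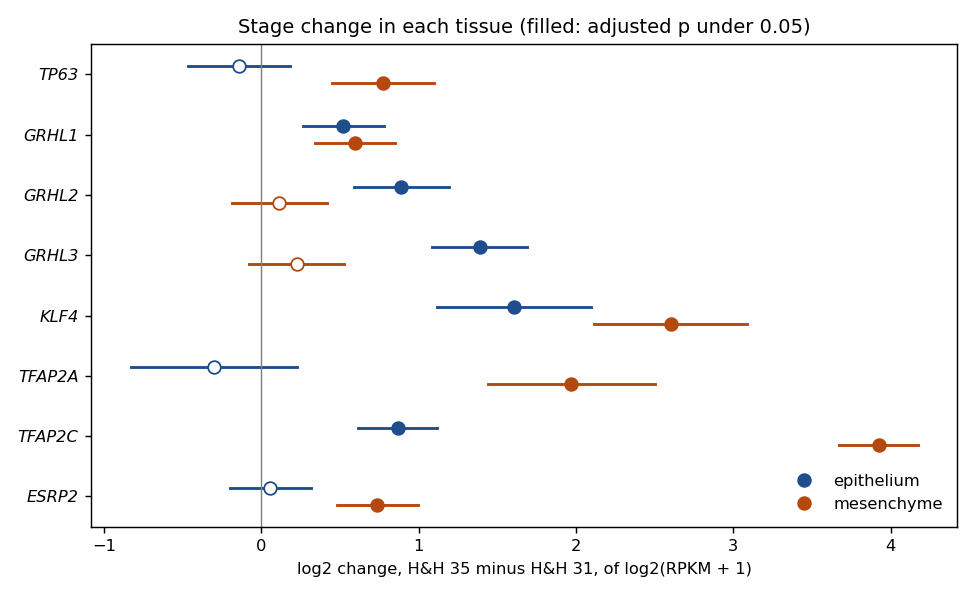
Change from H&H 31 to H&H 35 of log2(RPKM + 1) for each regulator in epithelium (blue) and mesenchyme (orange), as the estimate with its 95% interval. Filled points passed an adjusted p of 0.05. TFAP2C in mesenchyme stands farthest right at 3.92, and TP63, TFAP2A and ESRP2 are open in epithelium and filled in mesenchyme.

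The tissues were then compared at each stage. At H&H 31, 7 of the 8 were lower in mesenchyme than in epithelium, all except KLF4, and 0 were higher, also at an unadjusted p under 0.05 (limma). Over all genes 27.7% were lower and 29.7% higher. The epithelial mean of ESRP2 was 192 times that in mesenchyme (log2 difference -6.21, SE 0.11, adjusted p = 1.4e-09), that of TP63 97.5 times (-5.29, SE 0.14, adjusted p = 6.53e-09), that of TFAP2A 66.9 times and that of TFAP2C 48.7 times. The GRHL2 ratio of 189 rested on 1 and 4 reads in the mesenchyme. GRHL3 had the smallest ratio of the 7, with 8.9 times (log2 difference -2.76, SE 0.13, adjusted p = 1.79e-07).

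At H&H 35 the same 7 were lower in mesenchyme and KLF4 was higher, beside 37.1% of all genes lower and 29.1% higher. The ratio of epithelium to mesenchyme was 142 for GRHL2, whose mesenchymal level rested on 7 and 9 reads, 73.1 for ESRP2, 36.6 for GRHL1, 31.6 for TP63 and 19.6 for GRHL3. It was 8.04 for TFAP2A (5.88 in batch I and 12 in batch II) and 2.8 for TFAP2C (2.5 and 3.17). TFAP2C had the smallest difference of the 7 at this stage, -1.46 on the log2 scale (SE 0.11, adjusted p = 3.41e-06).

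Whether a stage change differed between the tissues was tested directly, as the mesenchymal change minus the epithelial change. 7 of the 8 differed, 5 towards mesenchyme and 2 towards epithelium, beside 19.4% and 23.0% of all genes. The 5 were TFAP2C (difference 3.06 on the log2 scale, SE 0.16, adjusted p = 6.41e-06), TFAP2A (2.27, SE 0.33, adjusted p = 0.000758), KLF4 (0.997, SE 0.30, adjusted p = 0.0274), TP63 (0.91, SE 0.20, adjusted p = 0.00652) and ESRP2 (0.68, SE 0.16, adjusted p = 0.00916). The 2 were GRHL3 (-1.16, SE 0.19, adjusted p = 0.00135) and GRHL2 (-0.78, SE 0.19, adjusted p = 0.0101). For GRHL2 the ratio of means ran the other way, 2.59-fold in mesenchyme on 1 to 9 reads a library and 1.95-fold in epithelium. GRHL1 did not pass, with a difference of 0.07 and a 95% interval of -0.29 to 0.44 (adjusted p = 0.74). Its difference was 0.60 with a pseudocount of 0.1, and its mean rose 2.42-fold in mesenchyme and 1.45-fold in epithelium. The calls of TP63, KLF4 and ESRP2 did not hold when each gene kept its own variance, that of KLF4 also without any 1 of 4 libraries, and that of GRHL2 with a pseudocount of 0.1 (difference -0.28, adjusted p = 0.55).

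The mesenchymal values were set beside those of the 12 epithelium markers, since a trace of epithelium in the mesenchymal samples would carry both. The markers' mesenchymal level, as a percent of their epithelial level, ran from 0.346% (CLDN1) to 8.2% (ITGB4) with a median of 1.31% at H&H 31, and from 1.01% (CDH1) to 8.64% (ITGB4) with a median of 1.24% at H&H 35. At H&H 35 TP63 (3.17%), GRHL1 (2.74%), GRHL2 (0.702%), GRHL3 (5.11%) and ESRP2 (1.37%) were below the highest marker, ITGB4 at 8.64%. GRHL3 was above the next marker, LAMA5 at 3.7%, while TP63, GRHL1 and ESRP2 lay between LAMA5 and the median. At H&H 31 GRHL3 (11.2%, with 11.1% in batch I and 11.4% in batch II) was above every marker, as was KLF4. ITGB4 was then at 7.42% in batch I and 9.02% in batch II. In RPKM, every marker except CDH3 was called higher in mesenchyme at H&H 35 than at H&H 31 (limma). Their log2 changes ran from 0.48 (ITGB4) to 1.88 (KRT5), and that of CDH3 was -0.05. The mesenchymal changes of TP63 (0.77), GRHL1 (0.60) and ESRP2 (0.74) lay within that range. As a percent of the epithelial level, the markers did not move in 1 direction. CDH1, the junction protein E-cadherin, went from 0.519% to 1.01% and TACSTD1 from 0.503% to 1.16%. PERP went from 0.511% to 1.05% and CLDN1 from 0.346% to 1.15%, and DSP, CDH3, ITGB4 and LAMA5 were also higher at H&H 35. The keratins were lower, KRT5 going from 2.73% to 1.27%, KRT15 from 3.35% to 1.21%, KRT75 from 2.86% to 1.88% and KRT14 from 1.68% to 1.63%. In epithelium itself KRT5, KRT15 and KRT75 rose (log2 changes 4.51, 3.48 and 3.82). ESRP2 went from 0.521% to 1.37%. TFAP2A went from 1.49% to 12.4% (17% in batch I and 8.33% in batch II) and TFAP2C from 2.05% to 35.7% (39.9% and 31.6%), and KLF4 from 93.8% to 191% (240% and 148%). At H&H 35 these 3 genes were above every marker in both batches, the highest marker being ITGB4 with 10.3% in batch I and 7.25% in batch II. The part of carried-over epithelium in the mesenchymal values was not tested.

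**Figure D4:**
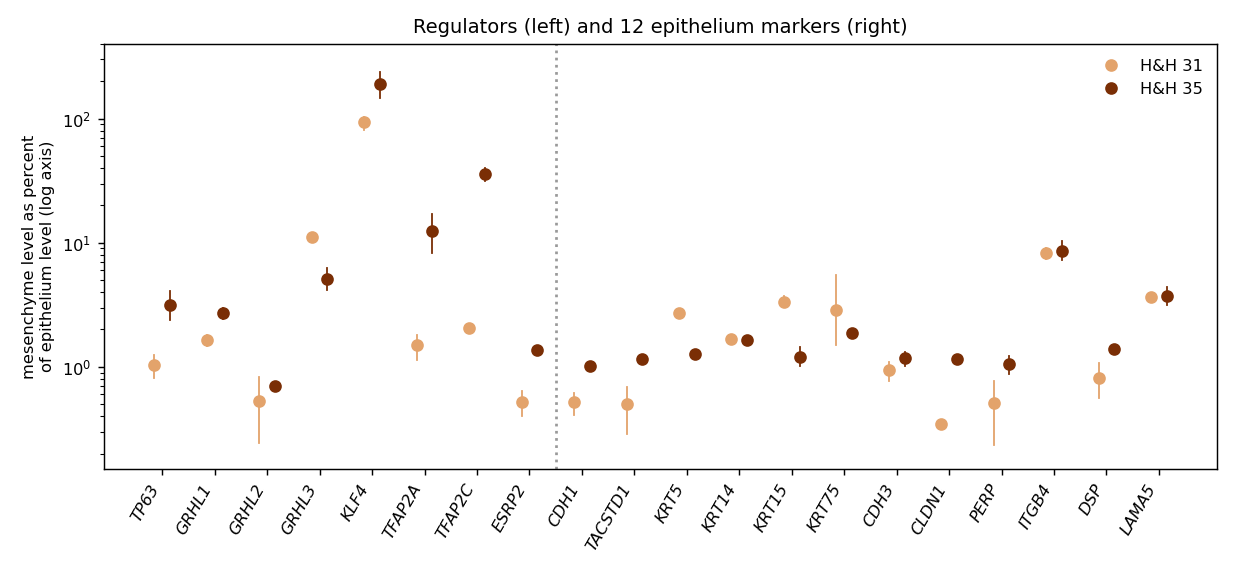
Mesenchymal level as a percent of the epithelial level (log axis) at H&H 31 (light) and H&H 35 (dark), for the 8 regulators left of the dotted line and 12 epithelium markers right of it. Points are ratios of group means and bars span the ratios within batch I and batch II. At H&H 35 TFAP2A (12.4%), TFAP2C (35.7%) and KLF4 (191%) lie above the highest marker, ITGB4 at 8.64%.

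Of a list of 34 other transcription factors of epidermis, 28 were tested. In epithelium 18 of these rose, 3 fell and 7 did not pass, beside 18.6% of all genes higher and 15.9% lower, and the median log2 change was 0.71. In mesenchyme 13 of the 28 rose and 2 fell, beside 18.2% and 21.6% of all genes, with a median of 0.20. CEBPB, a leucine zipper factor of differentiating keratinocytes, rose in epithelium from 1.57 ± 0.0343 to 19.6 ± 2.23 RPKM (2.999 on the log2 scale, adjusted p = 1.33e-06), and its relative CEBPA from 3.27 ± 0.706 to 28.9 ± 1.43 RPKM. The homeobox gene MSX2 rose from 5.02 ± 1.58 to 43.1 RPKM. KLF5, a relative of KLF4 found in proliferating epithelia, rose in epithelium from 30.7 ± 3.17 to 202.9 ± 13.6 RPKM (2.69 on the log2 scale, adjusted p = 8.64e-06). In that tissue it was thus well above KLF4 at both stages.

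Known targets of p63 in mammals, 25 tested of 30, counted 14 higher, 2 lower and 9 not passing in epithelium (median log2 change 0.62), beside 18.6% of all genes higher and 15.9% lower. TP63 itself was not called there. KRT5, a keratin of basal cells, rose from 12.99 ± 3.39 to 313.5 ± 41.0 RPKM (4.51 on the log2 scale, adjusted p = 1.14e-06), and SFN, the stratifin of keratinocytes, from 32.0 ± 3.88 to 257.8 ± 69.9 RPKM. The laminin chain LAMB3 (2.11 to 8.34 RPKM) rose as well. The 2 that fell, named here after their values were seen, were LAMA3, another laminin chain, and BMP7. Their log2 changes were -1.49 (adjusted p = 7.14e-05) and -0.66 (adjusted p = 0.0464). In mesenchyme 15 of the 25 rose and 3 fell, beside 18.2% and 21.6% of all genes. KRT5, KRT14, PERP, ITGB4, DSP and CLDN1 of this list are also among the epithelium markers, and all of these were called higher in mesenchyme. The part of carried-over epithelium in these rises was not tested.

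Of 22 listed targets of grainyhead-like factors, 13 were tested. In epithelium 2 rose, 2 fell and 9 did not pass, near the shares of all genes (18.6% higher and 15.9% lower), with a median log2 change of -0.06. CLDN1, a claudin of tight junctions, rose from 125.9 ± 4.93 to 226.7 ± 8.13 RPKM (0.84 on the log2 scale, adjusted p = 7.44e-05) and ESRP1 rose as given above. ELF3, an epithelial ETS factor, fell by 1.82 on the log2 scale, from 4.44 ± 0.312 to 0.541 RPKM (adjusted p = 1e-05). ST14, the protease matriptase, fell by 0.60 (adjusted p = 0.0211), a call lost in 5 alternatives. All 13 were lower in mesenchyme than in epithelium at both stages, beside 27.7% of all genes at H&H 31 and 37.1% at H&H 35. CDH1, CLDN1 and TACSTD1 of this list are also among the epithelium markers.

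Splicing factors other than ESRP2, 20 tested of 22, counted 4 higher, 4 lower and 12 not passing in epithelium (median log2 change -0.13), near the shares of all genes (18.6% and 15.9%). ESRP1 had the largest rise among them. RBFOX1, whose family selects exons in neurons and muscle, fell by 0.87 on the log2 scale, from 1.86 ± 0.240 to 0.570 ± 0.0475 RPKM (adjusted p = 0.00308), and RBFOX3 fell by 0.61, from 4.93 to 2.87 RPKM (adjusted p = 0.0156), lost in 3 alternatives. The summed level of 8 neuron and Schwann cell markers in epithelium went from 225.1 to 252.4 RPKM at H&H 31 to 120.6 to 122 at H&H 35. In mesenchyme it was 139.2 to 150.4 RPKM at H&H 31, where RBFOX1 was higher than in epithelium (2.04 on the log2 scale) and RBFOX3 lower (-1.46). By staining, the study found neurites to be very rare and only in mesenchyme under feather buds. The part of such cells in the RBFOX values was not tested. MBNL2, a muscleblind protein that shifts splicing in differentiating tissue, rose from 5.37 to 8.79 RPKM (0.62 on the log2 scale, adjusted p = 0.002).

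Among genes whose exons ESRP proteins select, 14 were tested of 15, and 3 rose, 2 fell and 9 did not pass in epithelium, beside 18.6% and 15.9% of all genes. The scaffold gene MAGI1 fell there from 22.3 to 8.39 RPKM (-1.32 on the log2 scale, adjusted p = 0.000141), while in mesenchyme it rose from 1.73 to 5.35 RPKM. ENAH, an actin regulator, fell from 83.6 to 50.4 RPKM. FGFR2, named here after its values were seen, was at 98.2 and 101.4 RPKM in epithelium of the 2 stages and at 34.3 and 38.3 in mesenchyme, with no stage change called.

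Of 8 listed repressors of the epithelial state, all 7 tested were higher in mesenchyme at both stages. PRRX1, TWIST1, TWIST2 and ZEB1 of this list are also among the mesenchyme markers. Over all genes 29.7% were higher in mesenchyme at H&H 31 and 29.1% at H&H 35. Within epithelium 2 rose and 2 fell, beside 18.6% and 15.9% of all genes. PRRX1 (0.173 to 0.857 RPKM) and TWIST2, listed as CDERMO-1 (0.805 to 1.84 RPKM), rose from low levels. On the log2 scale PRRX1 was higher in mesenchyme by 6.88 at H&H 31 and 6.94 at H&H 35, and TWIST2 by 8.44 and 7.09. The part of carried-over mesenchyme in these epithelial values was not tested. ZEB2 (4.05 to 2.496 RPKM, adjusted p = 0.0319) and SNAI2, also known as SLUG (67.7 to 49.1 RPKM, adjusted p = 0.0149), fell, calls lost in 9 and 4 alternatives. In mesenchyme SNAI2 rose from 89.4 to 211.4 RPKM. Keratinocyte differentiation genes were few in the table, with 4 of 23 listed tested beside the regulators, of which PPL, the periplakin of the cornified envelope, rose from 27.3 to 38.0 RPKM in epithelium (adjusted p = 0.0172, lost in 7 alternatives).

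The genes most like each regulator were found by the root mean square difference of log2(RPKM + 1), centred over the 8 libraries, which all genes share, so likeness is given as a description. For ESRP2 these were CDH1 (0.132), KRT8 (0.133) and PERP (0.14), the first a cadherin and the second a keratin of simple epithelia. For TP63 they were BARX2B (0.163), annotated as the homeobox gene BARX2, DSG2 (0.263), a desmosomal cadherin, and MAP7 (0.288). BARX2B was at 76.3 ± 8.22 RPKM in H&H 31 epithelium and 56.6 ± 2.26 at H&H 35. For GRHL1 they were ZNF750 (0.14), a zinc finger factor of epidermal differentiation, PKP1 (0.152), a desmosomal plakophilin, and RIPK4 (0.164), a kinase whose loss in mice disturbs epidermis. ZNF750 rose in epithelium from 23.3 to 43.2 RPKM. For GRHL2 they were MAL2 (0.0723), FAM83H (0.169) and GALNT3 (0.17), and for GRHL3 KRT80 (0.156), TNS4 (0.162) and FAT2 (0.214).

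For KLF4 the nearest genes were AKR (0.227), annotated as AKR1B10, PCSK6 (0.278) and ALPL (0.34). AKR had 20.5 and 20.2 RPKM in epithelium and mesenchyme at H&H 31 and 55.5 and 100.8 at H&H 35, so that it too was near equal first and higher in mesenchyme later. For TFAP2A they were JAG2 (0.489), a Notch ligand, PDGF-A (0.494), a growth factor, and F3 (0.53), tissue factor. For TFAP2C they were COL4A5 (0.589), EGFL6 (0.666) and COL4A6 (0.701), of which COL4A5 and COL4A6 encode chains of basement membrane collagen. COL4A5 went from 2.15 to 17.8 RPKM in mesenchyme (log2 change 2.57, adjusted p = 2.06e-06), EGFL6 from 14.1 to 80.9 and COL4A6 from 1.44 to 9.38. Within the 8, the closest pairs were TP63 with GRHL1 (0.32) and GRHL2 with GRHL3 (0.35), and the farthest was KLF4 with ESRP2 (3.25).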

How the data were processed

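The authors extracted total RNA of 8 dorsal skin samples, made libraries from it with a TruSeq RNA kit and sequenced these as single-end reads. They used Partek Flow for trimming and for alignment to the galGal4 build and Partek Genomics Suite after that, while the submitters' processing notes also name TopHat2. Versions and the gene annotation are not given in the sources used here. From the authors come RPKM of 14642 genes and, as a count, the alignments of each library, both in the deposited table. No coordinates or sequences are given, since the gene table at hand is of another build. It was used for names only, and 11653 names matched, with 8 of 8 regulators.

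RPKM was taken as log2(RPKM + 1), which understates the change of low genes. Genes with at least 1 RPKM in at least 2 libraries (11155) were fitted with limma 3.58.1 in R 4.3.3 as 4 group means over all 8 libraries, with moderated variance that follows the mean, two-sided tests and Benjamini-Hochberg adjustment over all genes tested. The study names t tests of groups for its own comparisons, and limma was used because a group has 2 libraries. The script was tested on simulated data. RPKM of 5893 of 13026 genes tried (45.2%, tolerance 0.03 reads) were whole multiples of 1 read in each library, which gives the reads behind GRHL1, GRHL2 and GRHL3, TFAP2B and ESRP1. Multiples up to 300 reads in a gene's lowest library above 0 were tried, so genes with more reads there were not covered. As whole reads were found for only part of the genes, no count test was run. Libraries held 20307162 to 30678729 such reads. For the other genes depth per gene is unknown, and the precision of a value is the spread of 2 libraries.

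The labels give batch I and II in every group, which is where a pairing of libraries would come from. Deviations from the group means of equally numbered libraries correlated at 0.19 between the tissues of H&H 31 and at 0.32 between those of H&H 35, but at -0.15 between stages in epithelium and 0.03 in mesenchyme. Between stages, fold changes given by batch set together libraries of equal number, so a difference between them may come from that matching. A fit with batch as a block was an alternative, as were other pseudocounts, filters, scalings, variance estimates, the libraries compared alone, and leaving out each library.

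The 8 genes, the gene lists and the markers were chosen with earlier results of these data known. Named beside the 8 are, from each list, up to 4 called genes with the largest epithelial change, the 3 genes closest to each regulator over the libraries, and the other TFAP2 and ESRP genes. A few genes that this rule names are not reported here.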

Additional observations from a re-analysis of the deposited data

Results flagged for a closer look

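For 7 of the 8 regulators the stage change differed between the tissues by the test of that difference (mesenchymal change minus epithelial change, log2 scale, limma with 2 libraries a group). Towards mesenchyme it was 3.06 for TFAP2C, 2.27 for TFAP2A, 0.997 for KLF4, 0.91 for TP63 and 0.68 for ESRP2. In the opposite direction it was -1.16 for GRHL3 and -0.78 for GRHL2. As a ratio of means, TFAP2C, TFAP2A, KLF4, TP63 and ESRP2 had the higher fold change in mesenchyme in both batches, as did GRHL1, which did not pass this test. For GRHL2 the ratio of means was also higher in mesenchyme (2.59-fold against 1.95-fold), on 1 to 9 reads a library, with 4.78-fold against 1.66-fold in batch I and 1.91-fold against 2.26-fold in batch II.

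At H&H 35 the mesenchymal level was 191% of the epithelial level for KLF4, 35.7% for TFAP2C and 12.4% for TFAP2A, beside a highest epithelium marker of 8.64%. KLF4 had overlapping levels in the tissues at H&H 31.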

How the results depend on the processing

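Over 20 alternatives the 8 regulators gave 776 values for 5 comparisons, of which 757 kept their direction and their side of the threshold, 12 lost a call, 0 gained one and 7 changed sign without being called. With each gene's own variance, 4 of 8 regulators differed in stage change between tissues, beside 7. Changes of sign concerned ESRP2 in epithelium (-0.059 with RPKM scaled to an equal sum, -0.057 with quantile normalization, and -0.007 to 0.12 when a library was left out), TP63 in epithelium (-0.29 to 0.002 when a library was left out), KLF4 between tissues at H&H 31 (-0.40 to 0.19), the difference of stage changes of GRHL1 (-0.043 to 0.19) and, outside the 8, TFAP2B in mesenchyme (-0.38 to 0.13).

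The number of genes called was 3842 for epithelium and ranged from 2476 (without batch I of H&H 31 epithelium) to 4112 when a library was left out. For mesenchyme it was 4435 and ranged from 2791 (without batch II of H&H 31 mesenchyme; 2903 without batch I) to 4536. Fewer samples remain in those fits. KLF4 lost its difference in stage change without batch II of H&H 31 epithelium, batch I of H&H 31 mesenchyme, batch I of H&H 35 epithelium or batch I of H&H 35 mesenchyme (adjusted p up to 0.0934), and without a filter (0.073). A pseudocount of 0.1 raised the mesenchymal log2 changes of TP63 from 0.77 to 1.36, of GRHL1 from 0.60 to 1.14 and of ESRP2 from 0.74 to 1.36, since these genes lie near 1 RPKM there.

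With batch as a replicate block, 5 regulators were called in epithelium, 6 in mesenchyme, 7 and 8 between tissues at H&H 31 and H&H 35, and 7 for the difference of stage changes, so the block changed no call of the 8. Scaling to an equal sum changed the split of all genes called, to 1464 higher and 2315 lower in epithelium (2070 and 1772 as deposited) and to 2682 higher and 1840 lower for the difference of stage changes (2166 and 2564). The median of all genes moved there from -0.05 to 0.09, and between tissues at H&H 35 from -0.10 to 0.01. Depth limits GRHL2 in mesenchyme, which rested on 1 to 9 reads a library.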
